A study of Homo sapiens with 12 samples.

Results

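The MYC and MAX network is a set of transcription factors that pair through a shared helix-loop-helix and leucine zipper domain and bind the E-box sequence CACGTG. MAX is the common partner. With MYC, MYCN or MYCL it activates genes of growth and the cell cycle, and with MXD1, MXD3, MXD4, MXI1 or MNT it recruits the SIN3 corepressor to E-box genes. MGA joins MAX in a noncanonical Polycomb complex. Ewing sarcoma cells, which are driven by the EWS-FLI1 fusion, are known to express MYC.

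The 10 members, MYC, MYCN, MYCL, MAX, MXD1, MXD3, MXD4, MXI1, MNT and MGA, were the entries of the deposited table whose symbol is one of those names. They are 10 of 25787 named entries, and all 10 had a mean of at least 10 normalised reads over the libraries and so were among the 14225 tested. RNA was sequenced from TC-71 cells, a line from a human Ewing sarcoma, with 3 libraries in each of 4 groups (12 in all). Cells labelled wild type were given YK-4-279, a small molecule developed against the partnership of EWS-FLI1 with the RNA helicase DHX9, at 2 mM as labelled, or the solvent DMSO, each for 16 hours. Cells labelled as DHX9 knockdown (siDHX9) or scrambled knockdown had repeated reverse transfection with Lipofectamine RNAiMAX and were taken 48 hours later. The agents are siRNAs in the protocols and shRNAs in the design text. All groups are 1 cell line, described as biological replicates, so p-values measure the spread between these cultures. The main fit shares 1 estimate of spread over all 4 groups, so its p-values do not measure the spread of the compared groups alone. Values are counts that the authors normalised between libraries with DESeq, so fewer cells expressing a gene and less of its RNA per cell cannot be told apart.

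Depth ran from 38.6 to 65.5 in units of 1e6 reads per library. The entry that holds DHX9 averaged 20608 ± 1098 (SD, n = 3) normalised reads in siDHX9 libraries, against 32689 ± 2132 in the scrambled ones. All 12 Ewing sarcoma marker genes were detected in every library, with NR0B1 between 6206 and 8764. Of 11 markers of other cell types, CD3E and KRT5 were at 0 throughout, and the list's sum was 283 to 344 in YK-4-279, 207 to 229.9 in DMSO, 270 to 323 in siDHX9 and 319 to 335 in scrambled libraries, most of it from KRT18. The ribosomal RNA entry took 8.79% ± 1.07 of the reads with YK-4-279 and 5.19% ± 0.244 in DMSO, and 2.71% ± 0.915 in siDHX9 and 4.09% ± 0.963 in scrambled libraries. A list of 19 measured genes of the ATF4 stress response had a mean log2 level of 9.51 to 9.6 in siDHX9, 9.16 to 9.36 in YK-4-279 and 9.2 to 9.34 in DMSO libraries. In scrambled libraries it was 11.33, 11.03 and 9.89, so scrambled replicates 1 and 2 stood apart from the rest on these genes. Over all entries siDHX9 replicate 2 stood apart from its group, with a chi-square per entry of 61.3 and 87.2 against the other 2 replicates, which differed by 29.1. Without it 4255 genes were called with siDHX9, against 2378 with all libraries. The chi-square per entry between replicates was 7.25 to 22.7 within DMSO or YK-4-279 and 30.3 to 41.8 within scrambled libraries. The part of these values in the results below was not tested.

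MYC was by far the most abundant member. To set genes side by side, levels were divided by merged exon length (GENCODE 29), and on that scale MYC averaged 9466 normalised reads per kb with YK-4-279, 8283 in DMSO, 10194 in siDHX9 and 7496 in scrambled libraries. MAX followed at 976, 998, 1022 and 824 reads per kb in the same groups. MYCN, the relative that is amplified in neuroblastoma, had 66.6, 60.46, 42.5 and 36.4 reads per kb, and MYCL had 9.49, 5.65, 18.6 and 27.1. MYC therefore made up 99.2% ± 0.0971 of the family's per-kb sum with YK-4-279, 99.2% ± 0.0137 in DMSO, 99.4% ± 0.0381 in siDHX9 and 99.2% ± 0.136 in scrambled libraries.

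Among the SIN3-recruiting members, MXI1 and MXD3 led in DMSO, siDHX9 and scrambled libraries. MXI1, with 419 reads per kb with YK-4-279 and 372 in DMSO, was followed in DMSO by MXD3 at 328 and MXD4 at 85.4. With YK-4-279 MXD4 stood at 185 ± 25.3 and MXD3 at 159 ± 18 reads per kb, neighbours whose SDs overlap and whose order was the reverse in replicate 3. MXD1 had 26.95 to 44.4 reads per kb over the 4 group means. MNT and MGA were lower still, with 14.8 to 17.7 and 11.3 to 13.7 reads per kb. Their order with MYCL changed between groups, since MYCL lay below both at 16 hours and above both in the transfected groups.

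**Figure D1:**
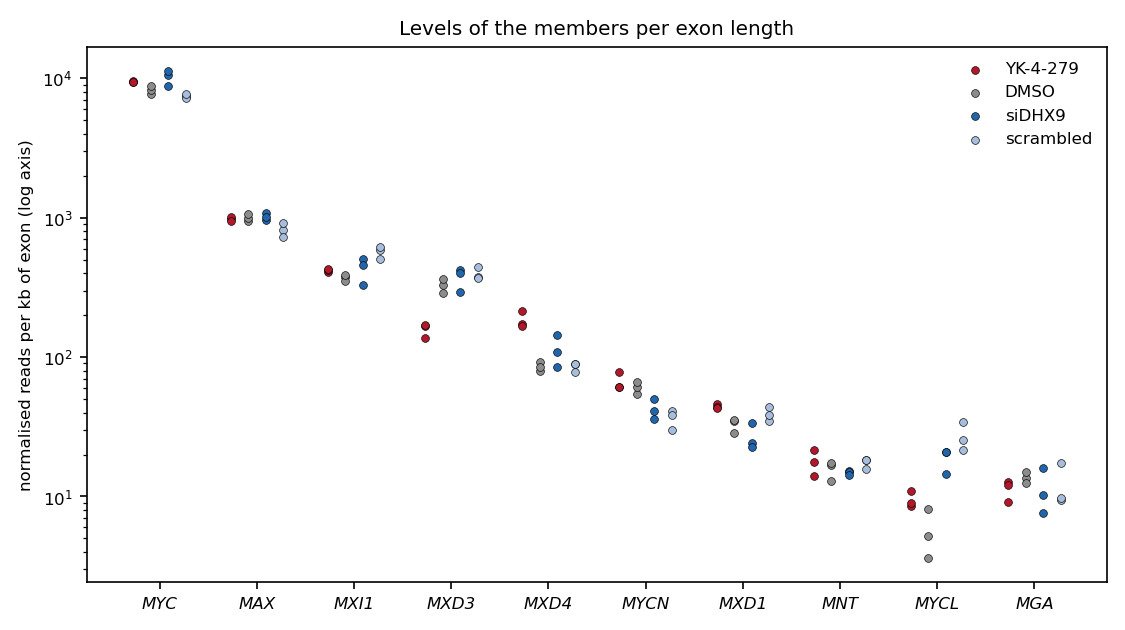
Level of each member in every library, as normalised reads per kb of merged exon on a log axis, coloured by group. The group means of MYC are 7496 to 10194 and those of MAX 824 to 1022, and MXD4 lies above MXD3 in 2 of 3 YK-4-279 libraries and below it in the DMSO libraries.

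The first comparison asked what 16 hours of YK-4-279 changed. MXD4 rose 2.16-fold and MXD3 fell 2.06-fold, and the other 8 members did not pass the test. Each p given here is two-sided, from limma, adjusted by Benjamini and Hochberg's method for all 14225 genes tested, and a call is an adjusted p under 0.05. Calls were made for 2 of 10 members, 1 higher and 1 lower, where 13.8% of all genes were called, 7.33% higher and 6.49% lower. The groups did not overlap for 6 of 10 members, 5 above and 1 below, where 43.5% of all genes had groups apart.

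MXD4, a MAX partner of the MXD family associated with cells that leave the cycle (GSHG0023077, hg19 chromosome 4, 2249160 to 2263823), had 704.7, 869.7 and 681 normalised reads with YK-4-279, against 323.8, 371.4 and 344.1 in DMSO. Every treated library was above every DMSO library, and the lowest treated value was well over the highest control. The log2 difference was 1.11 ± 0.16 (SE, 95% interval 0.76 to 1.46, adjusted p = 0.000859). No other entry with a mean of at least 10 overlaps it. It was called in all 24 other ways of processing tried, with log2 values of 1.0 to 1.18.

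MXD3, the family member that in mouse is expressed in S phase of dividing cells (GSHG0033466, hg19 chromosome 5, 176732501 to 176739292), had 455 (replicate 1), 550 (replicate 2) and 564 (replicate 3) normalised reads with YK-4-279, against 949.8, 1091 and 1194 in DMSO. All treated libraries lay below all DMSO libraries. The log2 difference was −1.04 ± 0.14 (SE, 95% interval −1.35 to −0.74, adjusted p = 0.000498), and it too was called in all 24. Its last 1459 bases overlap PRELID1, a far more abundant gene at 22028 ± 1052 normalised reads with YK-4-279 and 20033 ± 883 in DMSO. Whether counting used strand was not stated, so shared reads cannot be told apart, and PRELID1 itself had a log2 difference of 0.14 (adjusted p = 0.458).

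MXD4 and MXD3 were the members called in the drug comparison, so the RefSeq sequence of the 250 bases before each start site is shown. It is from GRCh38.p14, a later build than the hg19 of the table, 5′ to 3′ on the gene's minus strand. Capitals mark CACGTG and CCAAT or its reverse complement ATTGG. MXD4 spans chr4:2262110-2262359 and MXD3 spans chr5:177312753-177313002.
MXD4: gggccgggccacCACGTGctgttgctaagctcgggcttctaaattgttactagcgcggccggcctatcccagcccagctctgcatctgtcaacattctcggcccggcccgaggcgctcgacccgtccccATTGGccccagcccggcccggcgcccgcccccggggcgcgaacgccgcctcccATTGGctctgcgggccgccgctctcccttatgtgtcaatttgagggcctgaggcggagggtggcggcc
MXD3: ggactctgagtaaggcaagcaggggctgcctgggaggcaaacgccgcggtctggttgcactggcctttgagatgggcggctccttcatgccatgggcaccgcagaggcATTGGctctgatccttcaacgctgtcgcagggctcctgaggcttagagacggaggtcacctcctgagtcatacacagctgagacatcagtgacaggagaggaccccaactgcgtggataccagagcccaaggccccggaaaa
The MXD4 window holds CACGTG, the E-box that MAX dimers bind, with its first base at −238, and CCAAT boxes at −121 and −68, where −1 is the base before the start site. In MXD3 there was 1 CCAAT box, at −142, and no CACGTG. Both strands were searched in the same way for an E2F motif (TTTCGCGC, TTTGGCGC or GGCGGGAA) and for TTTGAA, the core of the cell cycle homology region, and neither motif is in these 2 windows. Of 35116 RefSeq windows of that length, 6.34% held CACGTG and 32% held CCAAT, and 3.63% and 13.3% held the E2F and TTTGAA motifs. Over the 14 windows of the 9 members searched, CACGTG was in 2 (MXD4 and MNT), CCAAT in 4, E2F in 2 and TTTGAA in 2.

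The makeup of the SIN3-recruiting members differed while their sum differed by less than its SD. MXD1, MXD3, MXD4, MXI1 and MNT together had 825 ± 40.5 reads per kb with YK-4-279, against 834 ± 41.4 in DMSO libraries (SD, n = 3). Of that sum MXD4 held 22.4% ± 2.17 with YK-4-279 and 10.3% ± 0.728 in DMSO. MXD3 held 19.2% ± 1.63 with YK-4-279 and 39.2% ± 2.64 in DMSO. MXI1 held 50.8% ± 1.66 with YK-4-279 and 44.7% ± 2.39 in DMSO. The sum was 959 ± 109 reads per kb in siDHX9 libraries, against 1109 ± 101 in scrambled libraries. In siDHX9 libraries MXD4 held 11.9% ± 3.41 and MXD3 38.9% ± 5.22, against 7.74% ± 0.293 and 35.7% ± 1.68 in scrambled libraries. MXI1 held 44.9% ± 8.15 in siDHX9 and 51.5% ± 1.31 in scrambled libraries, and MXD1 2.79% ± 0.328 and 3.54% ± 0.579.

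**Figure D2:**
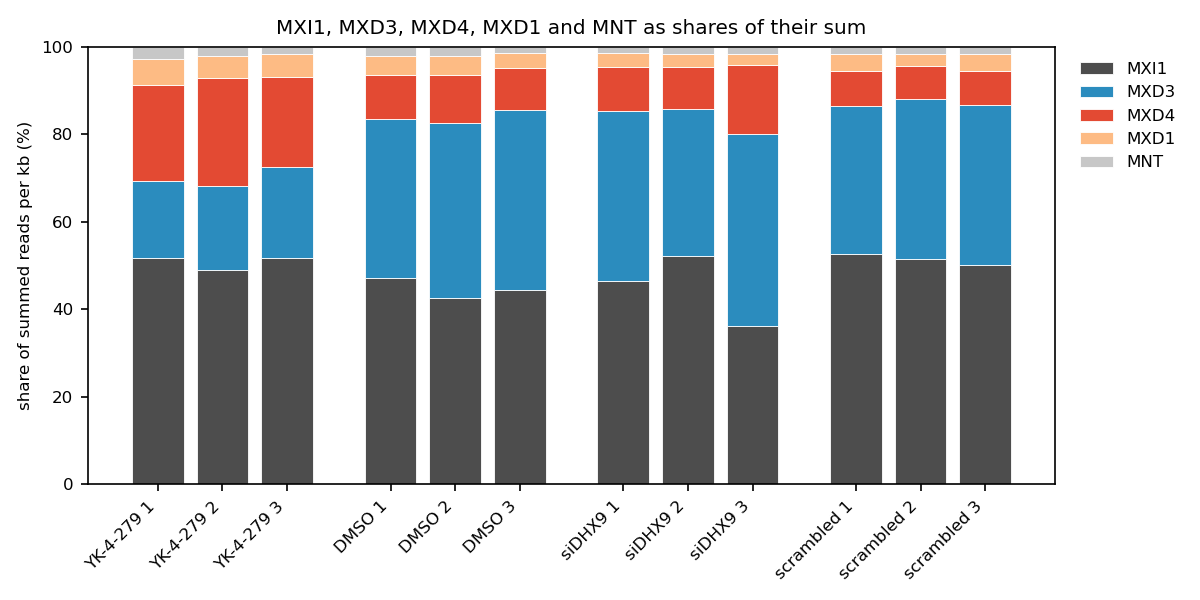
Share of MXI1, MXD3, MXD4, MXD1 and MNT in their summed reads per kb of exon, 1 bar per library, in percent. The MXD4 share was 22.4% with YK-4-279 and 10.3% in DMSO, and the MXD3 share 19.2% and 39.2%.

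MYC itself, the activating partner (GSHG0029250, chromosome 8), had 28176, 28712 and 28334 normalised reads with YK-4-279, against 23137, 24807 and 26631 in DMSO. The groups did not overlap. The SD was 275 with YK-4-279, 1748 in DMSO, 3765 in siDHX9 and 669 in scrambled libraries, and the fit shares 1 spread over all 4. The log2 difference of 0.19 (95% interval 0.01 to 0.38) had an adjusted p of 0.141. It was called in the 6 libraries of the comparison alone (adjusted p = 0.0123) and without siDHX9 replicate 2 (adjusted p = 0.0464), and in no other alternative.

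MXD1, a repressor induced as many cell types differentiate (GSHG0016536, chromosome 2), had 259, 247 and 242 normalised reads with YK-4-279, against 196, 199 and 159 in DMSO. The treated libraries lay above the controls, with a log2 difference of 0.44 ± 0.17 and an adjusted p of 0.0947, or 0.0271 in the 6 libraries alone. MYCL, a family member first found amplified in small cell lung cancer (GSHG0133844, chromosome 1), had 42.2, 54.3 and 44.3 normalised reads with YK-4-279, against 40.3, 17.9 and 25.7 in DMSO. It rests on as few as 18 reads in a library, and its log2 difference of 0.79 ± 0.29 had an adjusted p of 0.0817, or 0.0366 without DMSO replicate 1.

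MXI1, which is induced by low oxygen in other cells (GSHG0003677, chromosome 10), had 1647, 1717 and 1726 normalised reads with YK-4-279, against 1523, 1425 and 1577 in DMSO, groups that lay apart by a small margin (log2 0.17 ± 0.13, adjusted p = 0.416). MAX (log2 −0.03, 95% interval −0.22 to 0.16), MYCN (0.13, −0.25 to 0.52), MNT (0.17, −0.25 to 0.59) and MGA (−0.29, −0.86 to 0.29) had overlapping groups. The interval leaves room for a change of MAX of up to 0.22 on the log2 scale, and the wider ones for more.

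**Figure D3:**
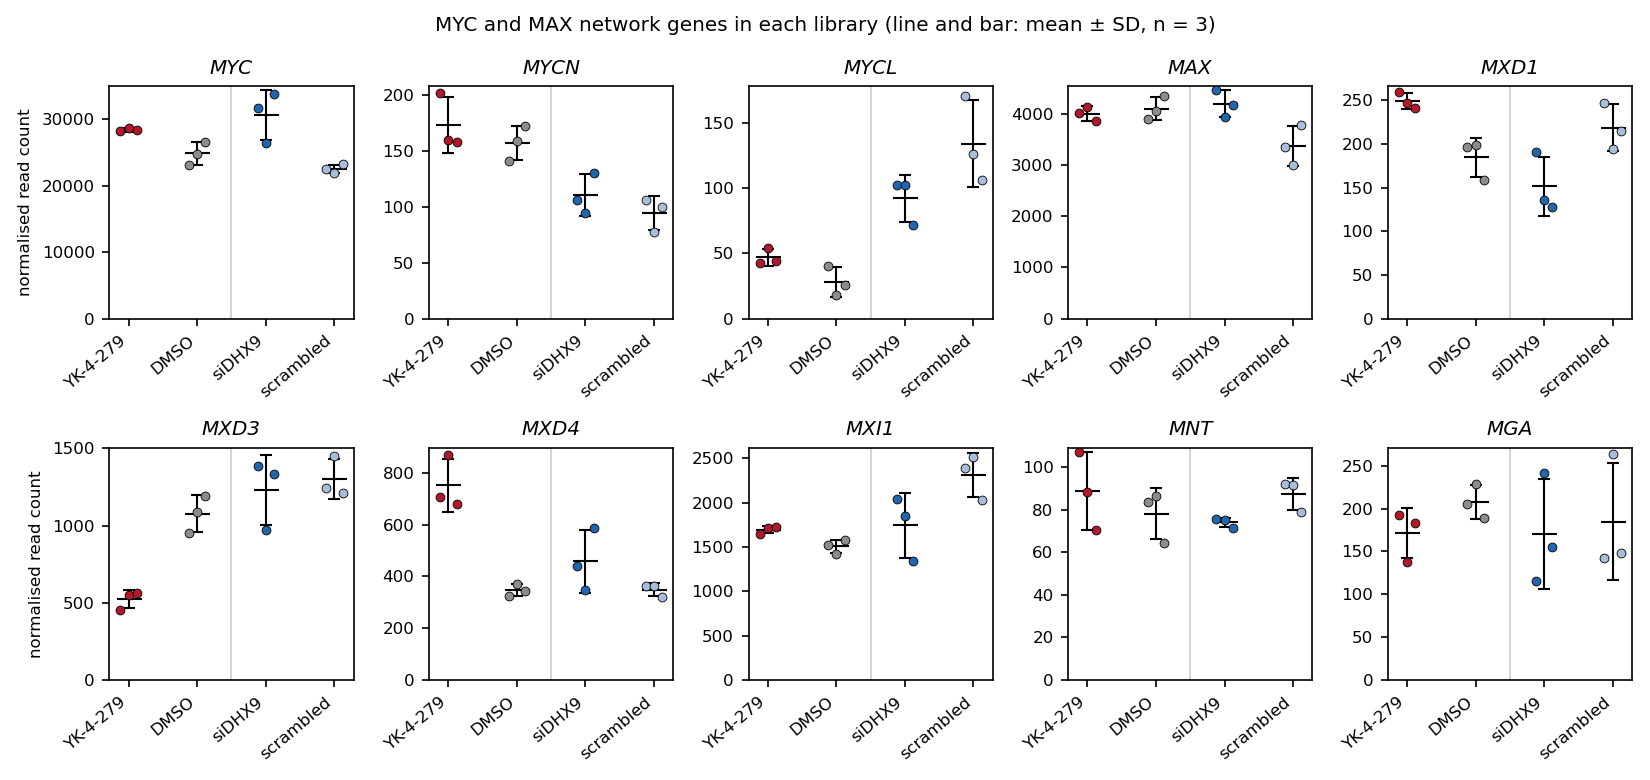
Normalised read count of each member in every library, with the mean and SD of each group (n = 3), each panel on its own axis from 0. MXD4 is higher and MXD3 lower with YK-4-279 than in DMSO with no overlap, and MYC is higher in siDHX9 than in scrambled libraries.

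The second comparison asked what lowered DHX9 changed against the scrambled control. MYC rose 1.35-fold and its partner MAX 1.245-fold, while MXD1 fell 1.46-fold and MXI1 fell 1.34-fold. These were 4 of 10 members called, 2 higher and 2 lower, where 16.7% of all genes were called, 8.75% higher and 7.97% lower. In the 6 libraries of this comparison alone, 0 members and 492 genes were called. The groups did not overlap for 5 of 10 members, 2 above and 3 below, where 29.3% of all genes had groups apart. None of the 4 calls was made without both scrambled replicates 1 and 2, an alternative chosen after earlier results of these data were known, in which the lone scrambled library is assumed to vary like the other groups.

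MYC had 31618, 26421 and 33737 normalised reads in siDHX9 libraries, against 22481, 21835 and 23173 in scrambled libraries. All siDHX9 libraries were above all scrambled libraries, and siDHX9 replicate 2 was the lowest of its group. The log2 difference was 0.44 ± 0.08 (SE, 95% interval 0.25 to 0.62, adjusted p = 0.00457). It was called with each of the 12 libraries left out in turn (adjusted p at most 0.0235). The adjusted p was 0.0581 in the 6 libraries alone, and 0.118 without scrambled replicates 1 and 2, where the log2 difference was 0.39. An unnamed entry within the MYC stretch was far lower, at 56.0 ± 38.7 in siDHX9 and 82.8 ± 14.8 in scrambled libraries.

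MAX (GSHG0009428, hg19 chromosome 14, 65472819 to 65569413) had 4468, 3941 and 4171 normalised reads in siDHX9 libraries, against 3351, 3002 and 3783 in scrambled libraries. The groups did not overlap, and the highest scrambled value, in replicate 3, was close to the lowest siDHX9 value. The log2 difference was 0.32 ± 0.09 (SE, adjusted p = 0.0285). Without scrambled replicate 1, scrambled replicate 2, siDHX9 replicate 1 or siDHX9 replicate 3, each left out alone, the adjusted p was 0.076, 0.101, 0.103 and 0.0599. It was 0.143 in the 6 libraries alone and 0.0575 with no variance trend, and without both scrambled replicates 1 and 2 the log2 difference was 0.15. The entry joining CHURC1 and FNTB overlaps MAX by 56555 bases and had 1567 ± 204 reads in siDHX9 and 1501 ± 85.3 in scrambled libraries.

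MXI1 had 2038, 1853 and 1340 normalised reads in siDHX9 libraries, against 2396, 2512 and 2035 in scrambled libraries. The lowest scrambled value, in replicate 3, which was also the scrambled library with the lowest stress list, lay just under the highest siDHX9 value. The part of the stress genes in this result was not tested. The log2 difference was −0.42 ± 0.13 (SE, adjusted p = 0.041). The call was made in 12 of the 24 other ways of processing, but not in the 6 libraries alone (adjusted p = 0.156). With 1 library left out it was made only without scrambled replicate 3, siDHX9 replicate 1 or siDHX9 replicate 2. Without siDHX9 replicate 3 alone the log2 difference was −0.246 (adjusted p = 0.134), and −0.245 without scrambled replicates 1 and 2 (adjusted p = 0.523).

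MXD1 had 190, 136 and 128 normalised reads in siDHX9 libraries, against 247, 194 and 215 in scrambled libraries. The groups lay apart by a narrow margin. The log2 difference was −0.54 ± 0.17 (SE, adjusted p = 0.0394). It was called in 12 of the 24 other ways of processing, but not in the 6 libraries alone (adjusted p = 0.14). With 1 library left out it was called only without DMSO replicate 3, scrambled replicate 2 or siDHX9 replicate 1. Its size changed less than that of MXI1, at −0.53 without scrambled replicates 1 and 2 (adjusted p = 0.258).

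MXD4 had 441.8, 345.8 and 586.9 normalised reads in siDHX9 libraries, against 362.5, 361.6 and 319.2 in scrambled libraries (log2 0.37 ± 0.16, adjusted p = 0.138, or 0.013 without siDHX9 replicate 2). MXD3 had 1388, 972 and 1332 in siDHX9, against 1245, 1450.0 and 1209 in scrambled libraries (log2 −0.09, 95% interval −0.4 to 0.21). Both pairs of groups overlapped. MYCN (log2 0.22 ± 0.18), MYCL (−0.53 ± 0.29), MNT (−0.24 ± 0.20) and MGA (−0.12 ± 0.27) had adjusted p values of 0.215 to 0.788. MNT and MYCL lay lower in every siDHX9 than in every scrambled library. MGA varied more within these groups, relative to its mean, than the other members, at 116, 241.5 and 156 in siDHX9 and 142.5, 263.6 and 149 in scrambled libraries.

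The difference between both effects was tested directly. MXD3 moved 0.95 lower on the log2 scale with YK-4-279 than with siDHX9, each against its own control (−0.95 ± 0.20, adjusted p = 0.0109), and MXD1 moved 0.98 higher (0.98 ± 0.23, adjusted p = 0.0191). Those were 2 of 10 members, 1 higher and 1 lower, where 9.69% of all genes were called, 4.4% higher and 5.29% lower. MXD3 was called in all 23 other ways of processing. MXD1 had adjusted p values of 0.0536, 0.0507 and 0.0531 when DMSO replicate 3, YK-4-279 replicate 1 or scrambled replicate 1 was left out. Without both scrambled replicates 1 and 2 neither was called, though both were of similar size, at −1.05 for MXD3 (adjusted p = 0.052) and 0.97 for MXD1 (adjusted p = 0.1). MYCL (1.32 ± 0.41, adjusted p = 0.0555), MXI1 (0.60 ± 0.19, 0.0578) and MXD4 (0.74 ± 0.23, 0.059) came just over the threshold, and each was called by DESeq2. The MYC effects differed by −0.24 (95% interval −0.5 to 0.01, adjusted p = 0.216), and by −0.34 without siDHX9 replicate 2, where the difference was called (adjusted p = 0.0334).

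**Figure D4:**
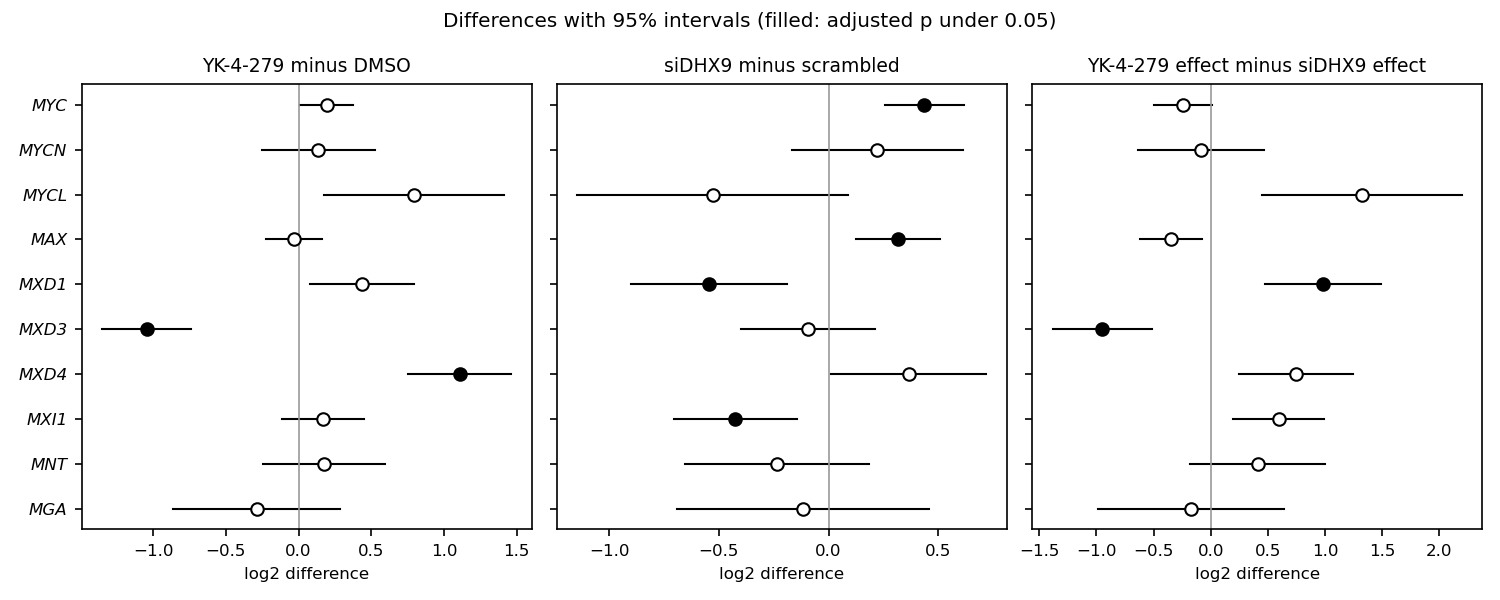
Log2 difference of each member with its 95% interval in each of the 3 comparisons (the drug against DMSO, siDHX9 against scrambled, and the drug effect minus the siDHX9 effect), filled where the adjusted p is under 0.05. MXD4 and MXD3 are called with YK-4-279, MYC, MAX, MXD1 and MXI1 with siDHX9, and MXD1 and MXD3 for the difference.

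The controls themselves differed in time and transfection, which cannot be told apart. MYCL averaged 134 ± 33.1 normalised reads in scrambled and 27.9 ± 11.4 in DMSO libraries. MXI1 averaged 2314 ± 248.5 in scrambled and 1508 ± 77 in DMSO libraries. MYCN averaged 94.6 ± 15 in scrambled and 157 ± 15.6 in DMSO libraries. MXD4 differed between the controls by less than its SD, at 348 ± 24.7 in scrambled and 346 ± 23.9 in DMSO libraries.

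Lists of partners, regulators and target genes were chosen with earlier results of these data known, and each is given as the number called beside the background above. The median log2 difference of all tested genes was 0.02 with YK-4-279 and −0.0024 with siDHX9. For some lists the counts with 1 library left out are given, as ranges over 12 fits. Counts given without a range were not all stable.

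With YK-4-279, of 33 nucleolar and ribosome biogenesis targets of MYC, 2 rose and 0 fell (median log2 0.05, 0 to 6 rose with 1 library left out). Of 30 targets in metabolism and translation, 2 rose and 1 fell (median 0.04, 0 to 7 rose and 0 to 2 fell with 1 library left out). The shares called, 6.06% and 10%, were below the 13.8% of all genes. Of 17 cell cycle targets 4 fell and 0 rose (median −0.11, 3 to 5 fell with 1 library left out), or 23.5% called.

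CKS1B, a subunit of cyclin-dependent kinases, had 11187, 12237 and 11974 normalised reads with YK-4-279, against 19900, 19790 and 19676 in DMSO, a log2 difference of −0.75 ± 0.06 (SE, adjusted p = 1.24e-05). MCM4, part of the replicative helicase, fell to 19275 ± 248 with YK-4-279, against 29559 ± 841 in DMSO (log2 −0.62, adjusted p = 0.000114). CCNA2, which encodes cyclin A2, fell to 3512 ± 45.4 with YK-4-279, against 4790 ± 172 in DMSO (log2 −0.45, adjusted p = 0.00183). These 3 were called with each library left out in turn. The fourth was E2F1, named after its values were seen to complete the count.

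Of 16 genes that regulate the MYC gene or its mRNA, 3 rose with YK-4-279 and 0 fell (median log2 0.04). The share called was 18.75%, where 13.8% of all genes were called. IGF2BP1, a protein that stabilises MYC mRNA, averaged 2644 ± 115 normalised reads with YK-4-279 and 1629 ± 73 in DMSO (log2 0.70, adjusted p = 0.00197). FUBP1, which binds DNA upstream of MYC, averaged 11288 ± 147 with YK-4-279 and 8759 ± 57.5 in DMSO (log2 0.37, adjusted p = 0.00371). KHSRP, an RNA-binding relative of FUBP1, averaged 23215 ± 994 with YK-4-279 and 17165 ± 661 in DMSO (log2 0.44, adjusted p = 0.00183). All 3 were called with each library left out.

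Of 20 genes acting on MYC protein stability, 1 rose and 3 fell with YK-4-279, or 20% called against 13.8% of all genes. With 1 library left out, 0 to 4 rose and 1 to 3 fell. PLK1 rose (log2 0.45, adjusted p = 0.0237). USP28 (log2 −0.37, adjusted p = 0.019) fell, as did HUWE1 (−0.24, 0.0335), named to complete the count, and CIP2A. CIP2A, an inhibitor of the phosphatase that marks MYC for decay, fell to 1508 ± 134 with YK-4-279, against 2447 ± 95.4 in DMSO (log2 −0.70, adjusted p = 0.00505). Of 7 other genes listed with the wider MAX and MLX network, 2 (MLXIP and USF2) rose and 1 (TFAP4) fell, or 42.9% called. With 1 library left out, 0 to 3 rose and 0 to 1 fell. The USF2 call was lost in 6 and the TFAP4 call in 7 of those 12 fits. MLXIP, a glucose-sensing partner of MLX, had 175, 224 and 142 normalised reads with YK-4-279, against 87.3, 118 and 46.2 in DMSO. Its log2 difference of 1.17 (adjusted p = 0.0303) was no longer called with any of 4 libraries left out. It was 1.25 without DMSO replicate 1 (adjusted p = 0.0664), 0.80 without DMSO replicate 3 (0.117), and 1.18 and 1.00 when YK-4-279 replicate 1 (0.0783) or 2 (0.126) was left out.

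With siDHX9, of 33 nucleolar targets 4 rose and 2 fell (median 0.15, 18.2% called, 0 to 11 rose and 0 to 2 fell with 1 library left out). Of 16 members of the MGA complex 2 rose and 5 fell (1 to 2 and 3 to 5 with 1 library left out). The share called was 43.75%, where 16.7% of all genes were called. Without scrambled replicates 1 and 2 these counts were 0 and 0, and 0 and 2. Of the 19 stress genes, 0 rose and 12 fell, against 0 and 0 without those replicates. Leaving out both also lowered the calls over all genes, so the smaller counts alone are no result about the lists. The log2 differences changed too. Without those replicates CHAC1 was at −0.97, against −3.08 with all libraries, and ATF3 at −0.31, against −1.92. Of the nucleolar targets, RRS1 was at 0.10 against 0.51, NOP16 at 0.08 against 0.39, and DDX21 at −0.51 against −0.76. In the MGA complex EHMT1 was at −0.40 against −0.50, while YAF2 (−0.87 against −0.55) and PCGF6 (−0.75 against −0.50) became larger in size. With 1 library left out, 6 to 17 stress genes fell.

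SAP30, a SIN3 subunit and so part of the machinery that MXD proteins recruit, fell to 2151 ± 77.3 in siDHX9, against 4295 ± 816 in scrambled libraries (log2 −0.98, adjusted p = 7.01e-05). Without scrambled replicates 1 and 2 it was still called, at −1.25 (adjusted p = 7.81e-05). SKP2, a ubiquitin ligase subunit that targets MYC, fell to 1202 ± 49.2 in siDHX9, against 1695 ± 51.2 in scrambled libraries (log2 −0.49, adjusted p = 0.00493), and was at −0.50 without scrambled replicates 1 and 2 (adjusted p = 0.0878). IGF2BP3, a relative of IGF2BP1, fell to 287 ± 62.9 in siDHX9, against 558 ± 130.3 in scrambled libraries (log2 −0.95, adjusted p = 0.00735), and was at −0.57 without those replicates (adjusted p = 0.268). ID2, a MYC target, rose to 9132 ± 565 in siDHX9, against 5238 ± 2129 in scrambled libraries (log2 0.88, adjusted p = 0.00961). Without scrambled replicates 1 and 2 ID2 was at 0.28 (adjusted p = 0.111).

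Of the 12 Ewing sarcoma marker genes, 2 rose and 0 fell with YK-4-279, or 16.7% called against 13.8% of all genes. With siDHX9, 4 rose and 0 fell, or 33.3% called against 16.7% of all genes, and 3 rose without scrambled replicates 1 and 2. BCL11B, one of these markers, averaged 4967 ± 285 normalised reads in siDHX9 and 2878 ± 302 in scrambled libraries (log2 0.79, adjusted p = 4.54e-05). In the remaining lists with YK-4-279, 2 of 18 MYC cofactors rose and 0 fell, and 1 of 14 corepressor subunits of the MXD proteins fell and 0 rose. Of 16 members of the MGA complex 1 rose and 0 fell. The shares called were 6.25% to 11.1%, where 13.8% of all genes were called. Of 12 measured genes that MYC is known to repress, 1 rose and 1 fell with YK-4-279 (median log2 0.26), and 0 rose and 2 fell with siDHX9 (median −0.21). The share called was 16.7% in both comparisons. With siDHX9 the counts that rose and fell were 1 and 1 for cofactors, 0 and 2 for corepressors, and 0 and 1 (TXNIP) for genes listed with the network. They were 0 and 2 for genes of MYC stability, 0 and 2 for regulators of MYC, 0 and 1 for metabolism and translation, and 2 and 0 for the cell cycle. The shares called in these lists were 3.33% to 14.3%, where 16.7% of all genes were called. The regulators that fell were IGF2BP3 and an entry joining RRAGC, GJA9-MYCBP, MYCBP and GJA9, whose reads cannot be assigned to MYCBP.

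**Figure D5:**
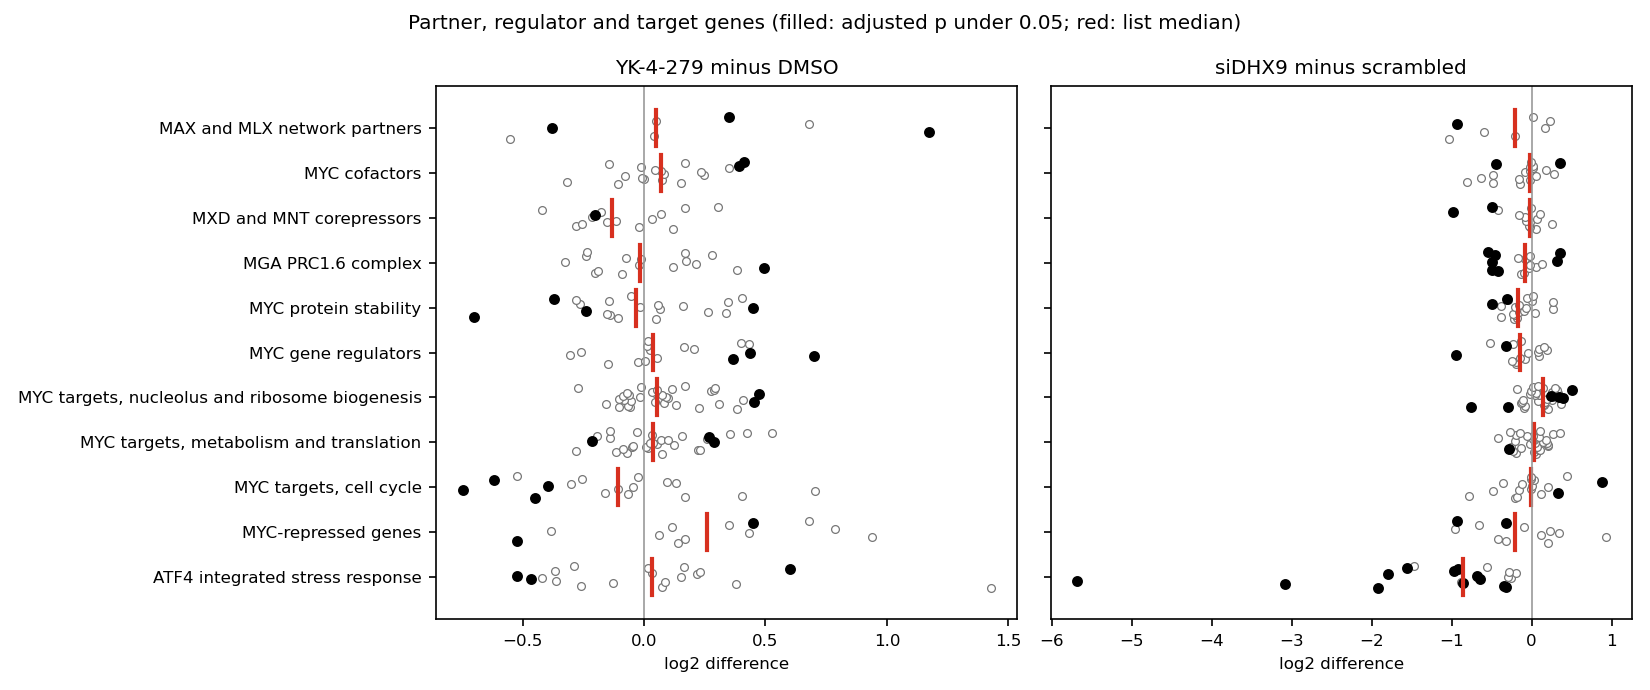
Log2 difference of every measured gene of each list for YK-4-279 minus DMSO and for siDHX9 minus scrambled, 1 point per gene, filled where called. The stress list lies lowest with siDHX9, where 12 of 19 genes fell, and 4 of 17 cell cycle targets fell with YK-4-279.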

How the data were processed

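RNA was sequenced from 12 TC-71 libraries. The deposited values are counts per gene model that the authors normalised between libraries with DESeq, in an hg19 table of FASTDB gene models, per the file headers. The submitters' processing notes name FastQC, Picard, SAMtools, STAR 2.4.0 and DESeq, and whether counting used strand was not stated. Whole reads behind the deposited signal values were recovered from the steps of low values for the count tests, and 100% of those low values came out whole within 0.1, although in 4 of 12 columns 1 read is worth so nearly 1 that the step cannot be told from rounding. On these reads edgeR called 1998 genes with YK-4-279, 2515 with siDHX9 and 1473 for the difference of effects. From the deposited values, log2(value + 1) was fitted with limma 3.58.1 with a trended variance, over 14225 named entries averaging 10 or more and all 12 libraries, with 1 mean per group. Fold changes are on that scale, which understates low genes. edgeR 4.0.16 and DESeq2 1.42.0 were alternatives, beside other filters, scalings and left-out libraries. The library count is the depth, 38.6 to 65.5 in units of 1e6 reads, and the lowest recovered count of a member was 18. Members and lists were chosen with earlier results of these data known. Genes could be named from a list and comparison if among its 3 largest called changes. A mean of 100 or more normalised reads in one group was required. Those given with their levels were mostly the ones called with every library left out in turn. MYC's promoter was not used here.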

Additional observations from a re-analysis of the deposited data

Results flagged for a closer look

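For 2 members the effect of YK-4-279 differed from that of siDHX9, each against its own control, by a limma test of the difference with Benjamini-Hochberg adjustment. MXD1 differed by 0.98 (adjusted p = 0.0191), with a mean of 249.5 normalised reads with YK-4-279 against 184.7 in DMSO, and 151.4 in siDHX9 against 218.9 in scrambled libraries. MXD3 differed by −0.95 (adjusted p = 0.0109), with 523.1 with YK-4-279 against 1078 in DMSO, and 1231 in siDHX9 against 1301 in scrambled libraries. Time, transfection and agent differ together between these comparisons and cannot be told apart.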

How the results depend on the processing

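The 2 member calls with YK-4-279 were made under every alternative run. With only the 6 libraries of a comparison, limma called 4270 genes and 4 members with YK-4-279, and 492 genes and 0 members with siDHX9 (with all libraries, 5 members had an unadjusted p under 0.05, and edgeR and DESeq2 each called 4). Without scrambled replicates 1 and 2, an alternative chosen after earlier results were seen, 469 genes and 0 members were called with siDHX9, and 440 genes and 0 members for the difference of effects. With no minimum or no trend, 2 members were called with siDHX9. Requiring also a log2 change of 1, 205 genes were called with YK-4-279, 367 genes and 0 members with siDHX9, and 390 genes and 0 members for the difference. DESeq2 called 2097 genes and 5 members for the difference. With 1 library left out, the calls were 858 to 2795 genes and 2 to 3 members with YK-4-279, 1244 to 4255 genes and 1 to 4 members with siDHX9, and 762 to 1883 genes and 1 to 5 members for the difference.

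Small uncalled values changed sign. With 1 library left out, MAX with YK-4-279 ran from −0.067 to 0.011, and with siDHX9 MGA ran from −0.40 to 0.17 and MXD3 from −0.19 to 0.068. For the difference, MYCN ran from −0.20 to 0.047 and MGA from −0.45 to 0.11. Without both scrambled replicates, siDHX9 values were 0.14 for MGA, 0.0081 for MXD3 and 0.0050 for TXNIP, listed with the MLX network (called with all libraries at −0.93), and MYCN was 0.0015 for the difference. The causes were not tested.

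With the replicate number as a block, 1601, 2118 and 1118 genes and 2, 4 and 2 members were called with YK-4-279, with siDHX9 and for the difference. Same-numbered libraries correlated in their deviations at 0.368, 0.143 and −0.051 (YK-4-279 and DMSO) and 0.112, 0.0925 and 0.0954 (siDHX9 and scrambled). Differently numbered libraries ran from −0.426 to 0.322 and from −0.2 to 0.133. These values do not decide whether the numbers mark pairs, and the main fit did not take them as pairs.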

Other observations

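The genes whose log2 levels were most like those of a member over the 12 libraries are given by Pearson's r among 10931 genes, as a description, since the libraries share treatment groups. For MXD4 they were LMAN2 (r = 0.977), GSTZ1 (0.970) and AP1S1 (0.969). For MXD3 the first was CRTAP (0.9755), a collagen-modifying factor. The second was the entry joining RAD51L3-RFFL, RFFL and RAD51D (0.962), and the third was KIFC1 (0.959), a mitotic kinesin. For MYC they were SCAMP5 (0.963), PSD (0.962) and PRR14 (0.962). For MXI1 the first was ERO1A (0.919), an oxidase of the endoplasmic reticulum. For MXD1 it was GNG12 (0.901), and for MAX it was ATP6V0E1 (0.954).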
